A study of Mus musculus with 24 samples.

Results

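The genes described here are the neutrophil-attracting CXC chemokines and their receptor, chosen by name with earlier results of these data known: the ligands Cxcl1, Cxcl2, Cxcl3, Cxcl5 and Ppbp and the receptor Cxcr2. Of these 6 genes, 5 had a probe set with that symbol alone among the 17097 genes measured, and each of the 5 had 1 such probe set. Cxcl3 was named on no probe set by the platform annotation used here and has no value below. Expression was read in whole spinal cords of 24 mice with passively transferred experimental autoimmune encephalomyelitis (EAE), a model of multiple sclerosis, or left unchallenged, with 1 Affymetrix array a mouse.

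The 5 groups were 4 mice labelled Act1 KO that received Th17 cells, 5 unchallenged mice labelled Act1 KO, 5 wild-type recipients of Th17 cells, 5 wild-type recipients of Th1 cells and 5 unchallenged wild-type mice. Recipients were sublethally irradiated with 500 rad and then injected with T cells reactive to the myelin protein MOG, expanded with IL-23 for Th17 cells or with IL-12 and an antibody to IL-23p19 for Th1 cells. Unchallenged mice, called naive here as in the study, were left untreated, so irradiation and transfer cannot be told apart in any comparison with them. Cords were taken 12 days after transfer, which the labels place at the onset of symptoms and the study's text at the peak of disease. Act1, encoded by Traf3ip2, is the adaptor through which the IL-17 receptor signals, and the KO label is that of the recipient mouse. The allele is not described in the sources used here, and the Traf3ip2 probe set read 5.38 to 5.92 in the naive KO mice, against 4.07 to 4.60 in the naive WT mice. That probe set therefore cannot check the label.

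CXC chemokines with the ELR motif are small secreted proteins that bind CXCR2, a Gi-coupled receptor found chiefly on neutrophils, and guide these cells out of the blood and into tissue. Cxcl1 and Cxcl2 are made by endothelial cells, fibroblasts, astrocytes and macrophages in response to IL-1, TNF and IL-17, through NF-κB and through stabilisation of their short-lived mRNAs. Cxcl5 is a ligand of epithelial and stromal cells, and Ppbp is the precursor of a ligand stored in platelet granules. In the inflamed spinal cord this axis is known for recruiting neutrophils in the forms of EAE driven by Th17 cells.

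The 5 ligand genes lie together on mouse chromosome 5. In the gene order of RefSeq (GRCm38.p6) the protein-coding genes run Cxcl5, Ppbp, Pf4, Cxcl3, Cxcl15, Cxcl1, Cxcl2, whereas Cxcr2 lies on chromosome 1. RefSeq promoter windows of 300 bases were found for 5 of the 6 members, all but Cxcl5. Those of Cxcl1 and Cxcl2, the ligands with the largest differences below, and of Ppbp, the ligand with the smallest, are shown on the plus strand at chr5:90890995-90891294, chr5:90903649-90903948 and chr5:90768268-90768567. Capitals mark matches to the NF-κB (kappaB) consensus in Cxcl1 and Cxcl2, where matches on both strands overlap, and to TATAAA in Ppbp.
Cxcl1: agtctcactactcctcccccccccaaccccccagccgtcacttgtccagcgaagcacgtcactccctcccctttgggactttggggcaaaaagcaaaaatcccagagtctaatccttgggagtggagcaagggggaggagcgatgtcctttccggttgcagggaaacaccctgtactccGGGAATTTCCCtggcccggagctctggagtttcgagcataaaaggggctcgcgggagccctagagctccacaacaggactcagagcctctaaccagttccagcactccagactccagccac
Cxcl2: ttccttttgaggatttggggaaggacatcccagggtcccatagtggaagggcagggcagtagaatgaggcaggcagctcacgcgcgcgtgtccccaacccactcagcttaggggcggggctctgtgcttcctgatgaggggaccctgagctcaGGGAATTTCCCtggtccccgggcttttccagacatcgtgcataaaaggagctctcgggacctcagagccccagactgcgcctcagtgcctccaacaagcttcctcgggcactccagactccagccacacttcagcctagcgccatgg
Ppbp: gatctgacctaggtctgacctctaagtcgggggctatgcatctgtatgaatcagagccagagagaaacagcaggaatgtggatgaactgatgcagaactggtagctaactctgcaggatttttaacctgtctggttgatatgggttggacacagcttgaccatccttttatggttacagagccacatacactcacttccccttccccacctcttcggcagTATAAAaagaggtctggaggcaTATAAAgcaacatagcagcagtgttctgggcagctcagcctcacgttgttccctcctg

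The Cxcl1 and Cxcl2 windows held the same kappaB letters, GGGAATTTCC, at positions −71 to −62 and −97 to −88 from the start site on the plus strand. The Cxcl3 window held these letters too, at −73 to −64. In each of the 3 windows a match on the minus strand was shifted by 1 base, so the matches overlap. The Ppbp and Cxcr2 windows held no kappaB match. TATAAA stood at −30 to −25 in both Cxcl3 and Ppbp and again at −8 to −3 in Ppbp, and it was not found in Cxcl1, Cxcl2 or Cxcr2. On either strand a kappaB match occurred in 1480 of 32851 RefSeq windows (4.51%), TATAAA in 13.6%, and the exact letters GGGAATTTCC, searched after they were seen in these windows, in 29 (0.0883%). The longest run of letters shared by the Cxcl1 and Cxcl2 windows had 20 bases. These matches describe the sequence and were not tested as binding sites.

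All values are log2 expression after robust multi-array averaging (RMA) by the study's authors, which sets the arrays to 1 common scale. Array medians lay between 3.46 and 3.57, and the table holds no detection calls. A group whose mean is under 3.46 is called near the background, and a difference against such a group is a lower bound in size as far as the background goes. Sampling error and the choice of scale can still place it lower. Differences come from 1 limma fit over all genes and groups, two-sided, and a gene is called where its p, adjusted by Benjamini-Hochberg over all 17097 genes, is under 0.05. Exact permutation tests of single genes, two-sided, can go no lower than p = 0.00794 for 5 mice against 5 or 4 against 5. Because the array scale is common, a second scale was set by 66 ribosomal protein genes, and on it the median of all genes moved by −0.42 between Th17 recipients and naive WT mice and by −0.47 between Th1 recipients and naive WT mice. The share of called genes that were higher was 41.3% for Th17 recipients against naive mice and 11.4% on the ribosomal scale, and 41.0% and 9.62% for Th1 recipients against naive mice. Between Th17 and Th1 recipients the median moved by 0.06 and the share went to 78.1% on the ribosomal scale, with 63.7% otherwise.

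In wild-type mice that received Th17 cells, Cxcl1, Cxcl2 and Cxcr2 exceeded their naive levels, Cxcl5 differed by a small amount near the background, and Ppbp did not pass the test. Among the 5 measured members 4 were called higher and 0 lower, and of all genes 18.0% were called higher. Centred on the ribosomal genes, 2 members were called higher, Cxcl1 (3.58) and Cxcl2 (0.99), and 2 lower, Cxcl5 and Ppbp, while Cxcr2 lost its call, and of all genes 9.97% were called higher and 77.1% lower there. The members' median log2 difference was 0.54, beside −0.05 over all genes, on the scale of the deposited values. In Th1 recipients Cxcl1 alone of the 5 exceeded its naive level with a call (16.7% of all genes), with a median of 0.02 beside −0.06. That call was lost on the ribosomal scale, where Cxcl5 (−0.45), Ppbp (−0.50) and Cxcr2 (−0.60) were called lower, as were 80.6% of all genes. Set directly against Th1 recipients, Th17 recipients had higher Cxcl1, Cxcl2 and Cxcr2, that is 3 of 5 members where 1.91% of all genes were called higher. The median was 0.67, beside −0.00 over all genes, and on the ribosomal scale the same 3 members were called higher. These 3 comparisons share their groups in pairs, so each member's values are given side by side and no overlap between comparisons is read.

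Cxcl1, the ligand best known as KC in mice, read 7.04, 7.19, 7.25, 6.98 and 6.88 in the 5 Th17 recipients, 4.51, 3.44, 3.30, 4.03 and 4.17 in the 5 Th1 recipients, and 3.09, 3.06, 3.04, 3.28 and 2.91 in the 5 naive wild-type mice. The 3 groups did not overlap, and the Th1 recipients were spread most, with 2 of the 5 below 3.46. Th17 recipients averaged 7.07 ± 0.15, Th1 recipients 3.89 ± 0.51 and naive mice 3.08 ± 0.13 (SD, n = 5 each). The naive mice were near the background, so the Cxcl1 ratio of Th17 recipients to naive mice, 15.9-fold, is a lower bound (log2 difference 3.99, standard error, SE, 0.15, limma adjusted p = 4.29e-18). The ratio of Th1 recipients to naive mice was at least 1.76-fold (0.81, SE 0.15, limma adjusted p = 6.82e-05). On the ribosomal scale that Th1 difference was 0.34 and no longer called (limma adjusted p = 0.0597). Between Th17 and Th1 recipients Cxcl1 was 9.05-fold higher (3.18, SE 0.15, limma adjusted p = 2.57e-13). Of all 17097 genes only S100a9, a subunit of the neutrophil protein calprotectin, had a larger log2 difference there (3.95).

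Cxcl2, the ligand known as MIP-2 in mice, read 3.70, 4.54, 3.95, 3.54 and 4.69 in Th17 recipients, 3.06, 2.61, 2.89, 2.89 and 3.21 in Th1 recipients and 2.89, 2.62, 2.57, 2.74 and 2.54 in naive wild-type mice. Every Th17 recipient lay above every mouse of the other 2 groups, which overlapped each other and were near the background. The means were 4.08 ± 0.51 in Th17 recipients, 2.93 ± 0.22 in Th1 recipients and 2.67 ± 0.14 in naive mice (SD, n = 5 each). The Cxcl2 ratio was 2.65-fold for Th17 recipients over naive mice (log2 difference 1.41, SE 0.16, 95% interval 1.09 to 1.73, limma adjusted p = 3.00e-08). It was 2.22-fold for Th17 over Th1 recipients (1.15, SE 0.16, 95% interval 0.83 to 1.47, limma adjusted p = 3.45e-05). Both ratios are against groups near the background, which can hide part of the difference. For Th1 recipients against naive mice the log2 difference was 0.26, with a 95% interval from −0.06 to 0.58, and did not pass (limma adjusted p = 0.209). Th17 recipient 5 had the most Cxcl2 of its group (4.69) and the least Cxcl1 (6.88).

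Cxcl5 read 2.80, 3.02, 2.79, 2.87 and 2.98 in Th17 recipients, 2.89, 2.67, 2.70, 2.79 and 2.62 in Th1 recipients and 2.68, 2.63, 2.67, 2.75 and 2.82 in naive wild-type mice. All groups overlapped and all lay near the background, so no fold is given. The log2 difference between Th17 recipients and naive mice was 0.18 (SE 0.07, limma adjusted p = 0.0381), with means of 2.89 ± 0.10 and 2.71 ± 0.08 (SD, n = 5 each), and it was reversed on the ribosomal scale (−0.23, limma adjusted p = 0.0281). That call was lost without Th17 recipient 2 or 5 or naive mouse 1, 2 or 3, while the log2 difference stayed between 0.15 and 0.21. Against Th1 recipients the difference was 0.16 and was not called (limma adjusted p = 0.341).

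Ppbp, the platelet-borne ligand, lay near the background in every group. Its probe set read 2.39 to 2.59 in Th17 recipients, 2.33 to 2.59 in Th1 recipients and 2.44 to 2.53 in naive wild-type mice. The log2 difference between Th17 recipients and naive mice was −0.02, with a 95% interval from −0.19 to 0.14, and that between Th1 recipients and naive mice was −0.03 (−0.20 to 0.14). Neither was called. On the ribosomal scale both were called lower, at −0.44 and −0.50, as were 77.1% and 80.6% of all genes. The median of all genes moved by −0.42 and −0.47 there, so these calls are not particular to Ppbp. A transcript near the background can change without the probe set showing it.

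Cxcr2, the shared receptor, read 3.16, 3.07, 3.77, 3.88 and 3.30 in Th17 recipients, 2.88, 2.87, 2.84, 2.46 and 2.80 in Th1 recipients and 2.74, 2.90, 3.17, 2.94 and 2.73 in naive wild-type mice. Only Th17 recipients 3 and 4 exceeded the array medians, and the lowest Th17 recipient lay under the highest naive mouse but above every Th1 recipient. The means were 3.44 ± 0.37 in Th17 recipients, 2.77 ± 0.18 in Th1 recipients and 2.90 ± 0.18 in naive mice (SD, n = 5 each), all near the background. The log2 difference was 0.54 between Th17 recipients and naive mice (SE 0.13, limma adjusted p = 0.00126) and 0.67 between Th17 and Th1 recipients (SE 0.13, limma adjusted p = 0.00294). The exact permutation p was 0.0238 for the first and 0.00794 for the second. On the ribosomal scale the difference from naive mice was 0.13 and not called (limma adjusted p = 0.386). In bulk tissue, fewer cells that carry a transcript and less of it in each cell cannot be told apart.

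**Figure D1:**
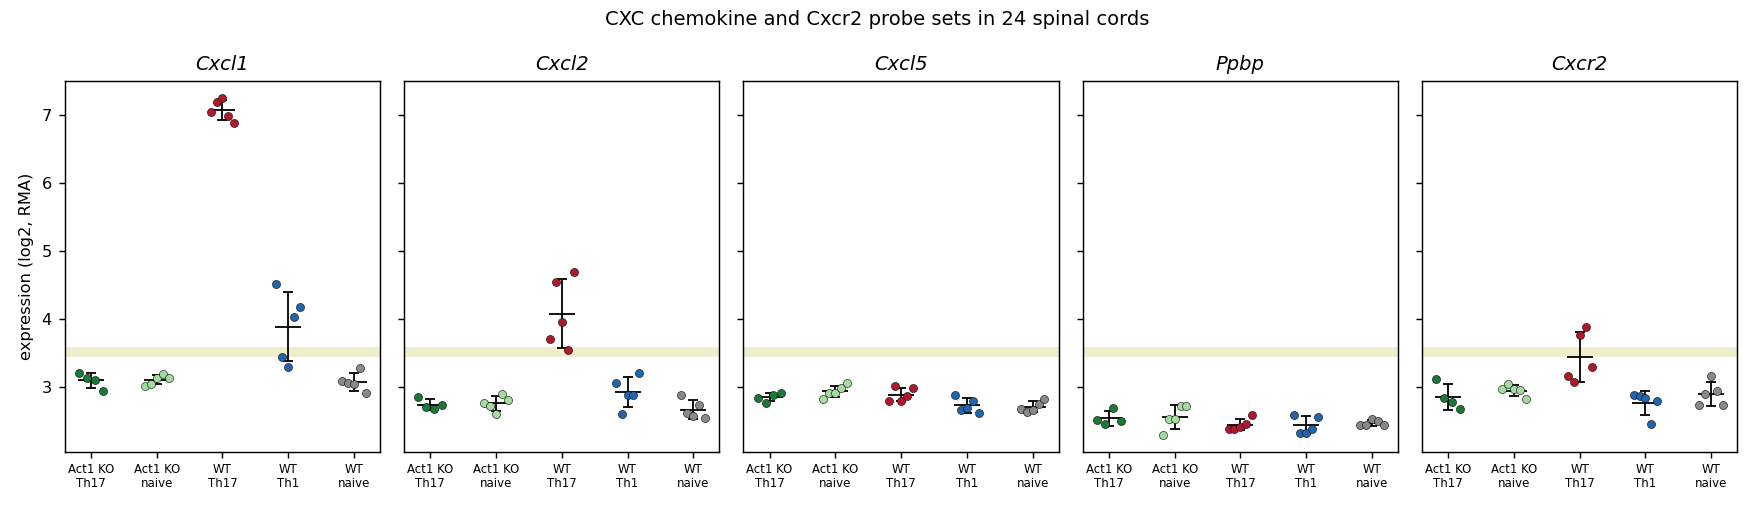
Log2 expression (RMA) of the 5 measured members by group, 1 point a mouse, with bars for the mean and SD and a band for the range of array medians (3.46 to 3.57). Cxcl1 in WT Th17 recipients (7.07 ± 0.15) and Cxcl2 in the same mice (4.08 ± 0.51) stand above all other groups, whereas Cxcl5 and Ppbp stay under the band in every group.

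A code in the sample titles was read here as rows and columns of the array plate, though the labels do not name it so. Within rows read in this way, the Th17 differences kept their direction. In the 4 rows that held both a Th17 recipient and a naive wild-type mouse, the Th17 value was higher in 4 of 4 rows for Cxcl1 (log2 difference 3.60 to 4.28), Cxcl2 (0.91 to 2.00), Cxcl5 (0.11 to 0.25) and Cxcr2 (0.34 to 1.04). In the 3 rows with a Th17 and a Th1 recipient it was higher in 3 of 3 for Cxcl1 (2.68 to 3.74), Cxcl2 (0.74 to 1.47) and Cxcr2 (0.19 to 0.97). Arrays of Th1 recipients shared no plate column with another group, so column and Th1 transfer cannot be told apart. Another code at the end of the titles follows the groups, so a technical effect tied to it cannot be told apart from group.

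In mice labelled Act1 KO, no measured member passed the test after Th17 transfer. None of the 5 was called in either direction between Th17 recipients and naive mice of that genotype, and of all genes limma called 0.00% there. At an unadjusted p under 0.05 limma passed 1070 genes (6.26%), the methods' t-test 707 and the exact Mann-Whitney test 521, and after adjustment both of these called 0. Cxcl1 read 3.20, 3.13, 3.11 and 2.94 in the 4 KO Th17 recipients and 3.02, 3.04, 3.14, 3.19 and 3.14 in the 5 naive KO mice. Cxcl2 read 2.86, 2.71, 2.68 and 2.73 in KO Th17 recipients and 2.76, 2.72, 2.60, 2.90 and 2.81 in naive KO mice. Both genes therefore overlapped between the groups and stayed near the background in all 9 mice. The log2 differences were −0.01 for Cxcl1 (95% interval −0.34 to 0.32), −0.01 for Cxcl2 (−0.35 to 0.33), −0.09 for Cxcl5 (−0.24 to 0.07), −0.01 for Ppbp (−0.19 to 0.16) and −0.10 for Cxcr2 (−0.38 to 0.19).

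Set against wild-type Th17 recipients, KO Th17 recipients had lower Cxcl1, Cxcl2 and Cxcr2, that is 3 of 5 members where 17.6% of all genes were called lower. Cxcl1 averaged 3.10 ± 0.11 in KO Th17 recipients (SD, n = 4) and 7.07 ± 0.15 in WT Th17 recipients (n = 5), a log2 difference of −3.97 (SE 0.16, limma adjusted p = 1.97e-17). The Cxcl1 level in KO recipients was near the background, so the 15.7-fold lower value is a lower bound. Cxcl2 averaged 2.74 ± 0.08 in KO Th17 recipients (SD, n = 4) and 4.08 ± 0.51 in WT Th17 recipients (n = 5), a log2 difference of −1.34 (SE 0.17, limma adjusted p = 2.22e-07). For Cxcr2 the 4 KO Th17 recipients read 3.12, 2.84, 2.78 and 2.68, overlapping the WT Th17 recipients (3.07 to 3.88). The Cxcr2 difference was −0.58 (SE 0.14, limma adjusted p = 0.00117), and on the ribosomal scale it was −0.21 and not called (limma adjusted p = 0.169). Cxcl5 (−0.04) and Ppbp (0.10) were not called, while on the ribosomal scale, where the median of all genes moved by 0.37 and the share of called genes that were higher by KO label was 87.4% instead of 58.4%, both were called higher, Cxcl5 at 0.33 and Ppbp at 0.46.

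How far the Th17 response of KO mice differed from that of WT mice was tested by the interaction term, KO minus WT. It was called lower for 4 of 5 members, where 13.8% of all genes were called lower: Cxcl1 (−4.00, SE 0.22, limma adjusted p = 3.33e-14), Cxcl2 (−1.42, SE 0.23, limma adjusted p = 1.92e-05), Cxcr2 (−0.64, SE 0.19, limma adjusted p = 0.0107) and Cxcl5 (−0.27, SE 0.10, limma adjusted p = 0.0451). The Ppbp interaction was 0.01 (95% interval −0.23 to 0.25). With ribosomal centring the interaction of Cxcl1 (−3.64) and Cxcl2 (−1.06) was still called lower, that of Cxcr2 was −0.28 and that of Cxcl5 0.09, neither called (limma adjusted p = 0.206 and 0.576), and that of Ppbp was 0.37 and called higher (limma adjusted p = 0.0479). The share of called genes that were higher was 86.0% on that scale, instead of 56.8%. With the plate row as a block the Cxcr2 interaction was −0.67 and not called (limma adjusted p = 0.0878). The Cxcl5 call was lost in 13 of the 19 fits that left out 1 mouse. It held only without KO Th17 recipient 4, naive KO mouse 1, WT Th17 recipient 1 or 3, or naive WT mouse 4 or 5, and the difference ran from −0.30 to −0.24 over the 19. KO Th17 recipients and naive KO mice shared no plate row, so no value within rows can be given for the KO response.

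**Figure D2:**
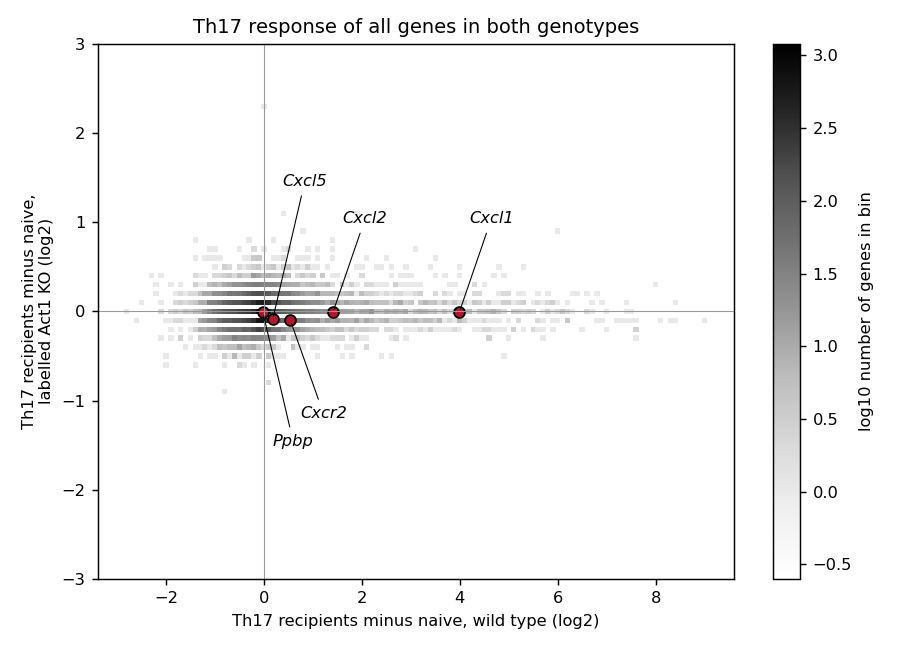
Log2 difference between Th17 recipients and naive mice in wild-type mice (horizontal) and in mice labelled Act1 KO (vertical) for all 17097 genes, in bins of 0.1 shaded by the log10 number of genes, with the members in red. Cxcl1 lies at 3.99 on the wild-type axis and −0.01 on the KO axis, and Cxcl5, at 0.18 and −0.09, lies below 0 on the wild-type axis on the ribosomal scale (−0.23).

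Between naive mice of both genotypes no member was called, where 0.585% of all genes were called in either direction. Cxcl5 read 2.83, 2.92, 2.92, 2.98 and 3.06 in naive KO mice, against 2.68, 2.63, 2.67, 2.75 and 2.82 in naive WT mice. These groups did not overlap, and the log2 difference was 0.23 (SE 0.07, exact permutation p = 0.00794, limma p = 0.00287 before adjustment), yet it did not pass over all genes (limma adjusted p = 0.228) and both groups were near the background. The other members differed by 0.03 (Cxcl1), 0.08 (Cxcl2), 0.09 (Ppbp) and 0.06 (Cxcr2). By group mean, Cxcl5 was thus highest in naive KO mice (2.94 ± 0.08, n = 5), followed by WT Th17 recipients (2.89 ± 0.10, n = 5) and KO Th17 recipients (2.85 ± 0.06, n = 4), with Th1 recipients at 2.73 ± 0.11 and naive WT mice at 2.71 ± 0.08 (SD, n = 5 each). Neighbours in that order overlapped. For Cxcl1 the order was WT Th17 recipients, Th1 recipients and then naive KO mice, KO Th17 recipients and naive WT mice, whose values overlapped between 2.91 and 3.28. For Cxcl2 every WT Th17 recipient (3.54 to 4.69) lay above all mice of the other 4 groups (2.54 to 3.21), which overlapped each other. For Cxcr2 the WT Th17 recipients led (3.44), followed by naive KO mice (2.95), naive WT mice (2.90), KO Th17 recipients (2.85) and Th1 recipients (2.77). Every WT Th17 recipient (3.07 to 3.88) lay above every naive KO mouse (2.82 to 3.04), whereas the later neighbours in that order overlapped. Ppbp read 2.46 to 2.70 in KO Th17 recipients and 2.30 to 2.72 in naive KO mice, overlapping all wild-type groups.

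**Figure D3:**
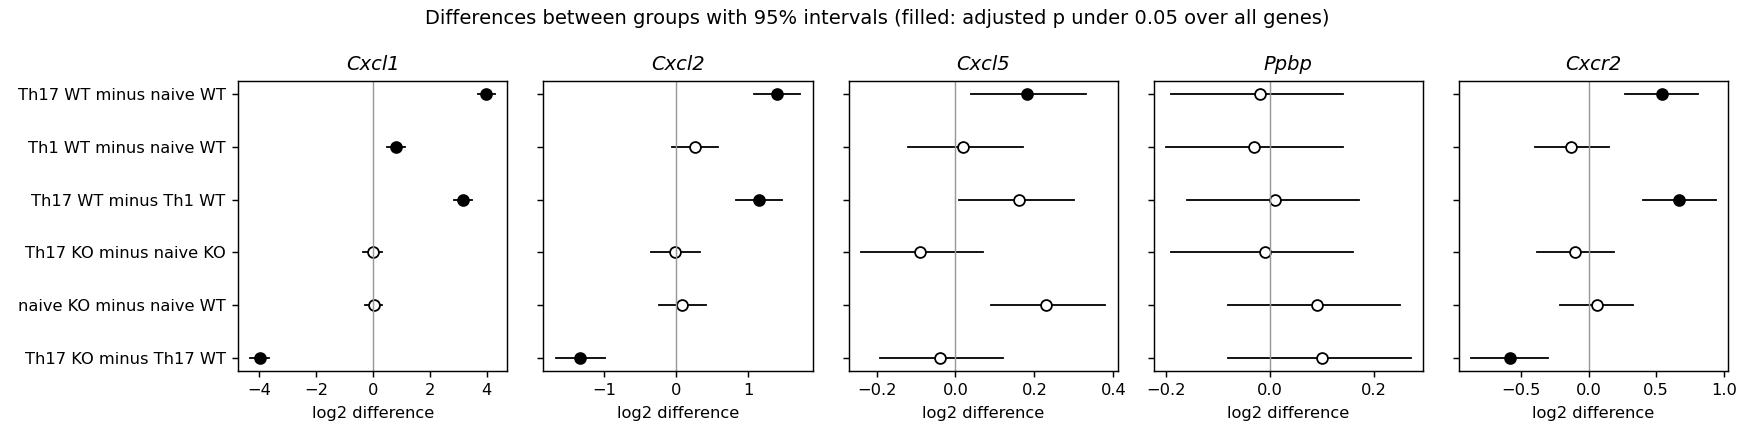
Log2 differences of the 5 measured members for 6 comparisons, with 95% intervals from the limma fit and filled points where the adjusted p over all genes is under 0.05. Cxcl1 runs from −3.97 (KO against WT Th17 recipients) to 3.99 (WT Th17 recipients against naive), each panel has its own axis, and the Cxcl5 difference of 0.18 is −0.23 on the ribosomal scale.

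Along the chemokine cluster on chromosome 5, the difference between groups varied from gene to gene. Pf4, platelet factor 4, a CXC chemokine without the ELR motif that lies beside Ppbp, read 4.99, 5.17, 6.04, 5.21 and 4.04 in WT Th17 recipients, 4.30, 3.21, 3.45, 3.32 and 3.15 in Th1 recipients and 2.54, 2.43, 2.57, 2.67 and 2.58 in naive WT mice. Its log2 difference was 2.53 between Th17 recipients and naive mice (limma adjusted p = 9.04e-10) and 1.60 between Th17 and Th1 recipients (limma adjusted p = 7.76e-05). Between Th1 recipients and naive mice it was 0.93, which was not called on the ribosomal scale (0.45, limma adjusted p = 0.0680). In KO Th17 recipients Pf4 read 2.33 to 2.93. Cxcl15, a CXC chemokine of lung epithelium between Cxcl3 and Cxcl1, was not called between Th17 recipients and naive mice (0.03, limma adjusted p = 0.870). On the ribosomal scale it was −0.39 and called lower, as were 77.1% of all genes. Beyond the 2 ends of the cluster, chosen after their values were seen, Rassf6 was not called (−0.16, but −0.58 and called lower on the ribosomal scale) and Mthfd2l, a mitochondrial folate enzyme next to Cxcl2, was lower in Th17 recipients than in naive mice (−0.83, limma adjusted p = 4.32e-05).

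**Figure D4:**
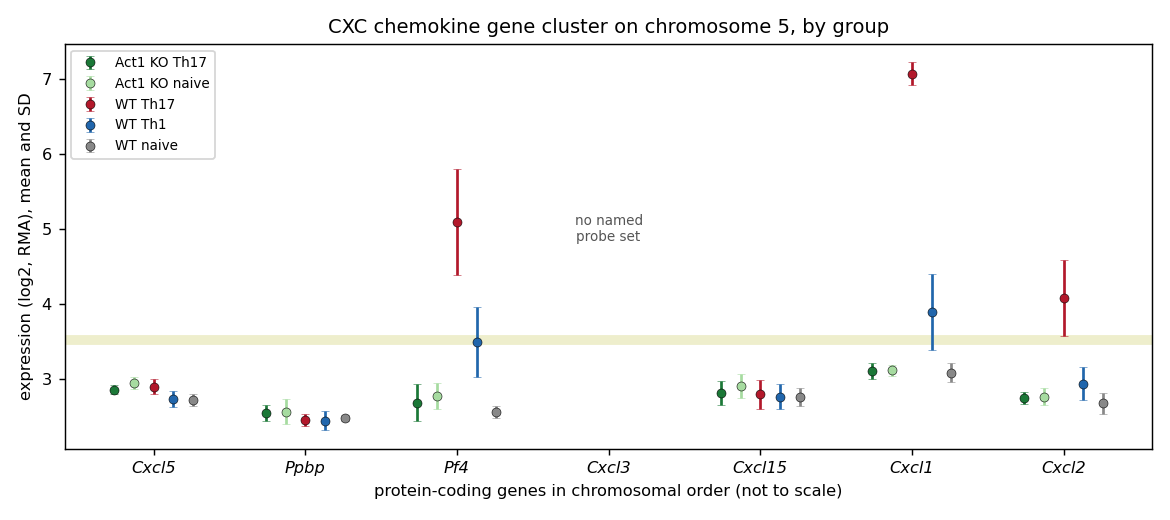
Mean and SD of log2 expression (RMA) by group for the CXC chemokine genes of chromosome 5 in chromosomal order, not to scale, with a band for the range of array medians. Cxcl1, Cxcl2 and Pf4 rise above the band in WT Th17 recipients and stay under it in both KO groups, as Ppbp, Cxcl15 and Cxcl5 do in all groups, and levels of different probe sets are not comparable with each other.

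Of 29 other genes of the CXCR2 axis (further ligands and receptors, the signalling of CXCR2, the IL-17 pathway and the cytokines that induce these chemokines), 23 were measured. Against naive mice 18 of the 23 were higher in Th17 recipients and 0 lower (median 0.96), in Th1 recipients 15 were higher and 1 lower (median 0.72), and between Th17 and Th1 recipients 5 were higher and 0 lower (median 0.27). Of all genes, 18.0% were called higher and 25.5% lower in Th17 recipients, and 16.7% and 24.1% in Th1 recipients. Between Th17 and Th1 recipients the shares were 1.91% and 1.09%. On the ribosomal scale the counts of the 23 were 16 higher and 5 lower, 11 higher and 6 lower, and 6 higher and 0 lower. The shares of all genes there were 9.97% higher and 77.1% lower, 8.58% and 80.6%, and 2.19% and 0.614%. The same shares stand beside the lists below. Among inducers, Il1b, which encodes IL-1β, had a log2 difference of 4.38 in Th17 and 2.10 in Th1 recipients against naive mice, and Il6, a cytokine made with the chemokines, 1.31 in Th17 recipients, with 0.33 in Th1 recipients not called (limma adjusted p = 0.195). Nfkbiz, an NF-κB cofactor that IL-17 induces, differed by 2.90 in Th17 and by 1.53 in Th1 recipients. The 5 genes called between Th17 and Th1 recipients were Cxcl12, a chemokine that retains neutrophils in bone marrow (1.34), Il1b (2.28), Nfkbiz (1.37), Pf4 (1.60) and Il6 (0.98).

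On the receptor side, Il17ra, the common IL-17 receptor subunit, was higher by 2.25 in Th17 recipients and by 2.04 in Th1 recipients than in naive mice. Il17rd, another subunit of that family, was the gene called lower in Th1 recipients (−0.35, limma adjusted p = 0.0182). Il17a itself differed by 0.29 between Th17 recipients and naive mice (limma adjusted p = 0.0464), which turned to −0.13 and lost its call on the ribosomal scale. Between Th17 and Th1 recipients Il17a differed by 0.40, which did not pass (limma adjusted p = 0.0573). On the ribosomal scale that difference was 0.46 and was called (limma adjusted p = 0.0351), so this call depends on the scale. Rac2, a GTPase that drives neutrophil migration, and Pik3cg, the kinase downstream of Gi-coupled receptors, were higher than in naive mice by 4.71 and 2.45 in Th17 recipients and by 4.72 and 2.37 in Th1 recipients. Csf3, which encodes the neutrophil growth factor G-CSF, was not called (−0.01 in Th17 recipients), while its receptor gene Csf3r was higher by 2.94 in Th17 and by 2.32 in Th1 recipients. On the ribosomal scale Csf3 was at −0.42 in Th17 recipients and called lower, as were 77.1% of all genes. In mice labelled Act1 KO none of the 23 was called between Th17 recipients and naive mice.

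**Figure D5:**
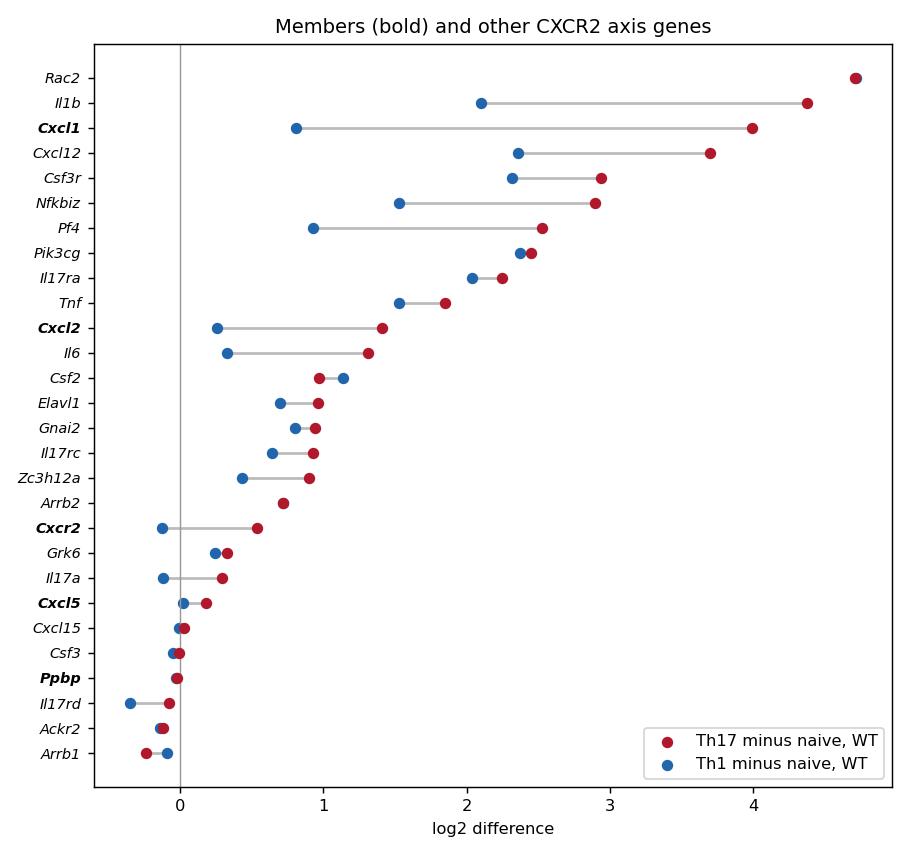
Log2 difference from naive wild-type mice in Th17 recipients (red) and Th1 recipients (blue) for the members (bold) and the measured other genes of the CXCR2 axis, ordered by the Th17 difference. Cxcl1 shows a wide gap between both (3.99 and 0.81) while Rac2 shows almost none (4.71 and 4.72), and Cxcl5 (0.18) is −0.23 for Th17 recipients on the ribosomal scale.

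Of 22 neutrophil markers 18 were measured, and 11 were higher in Th17 recipients, 7 in Th1 recipients (each against naive mice) and 8 in Th17 against Th1 recipients, with 0 lower in each and the remaining markers not called. On the ribosomal scale these counts were 7 higher and 6 lower, 4 higher and 11 lower, and 8 higher and 0 lower. Their mean log2 level per mouse was 4.66 to 5.03 in Th17 recipients, 3.81 to 4.32 in Th1 recipients and 2.92 to 3.19 in naive wild-type mice. In the KO groups it was 2.92 to 2.95 in Th17 recipients and 3.00 to 3.11 in naive mice. S100a9 read 8.02, 8.54, 8.82, 7.85 and 9.38 in Th17 recipients, 6.49, 5.02, 3.57, 3.96 and 3.80 in Th1 recipients and 3.23 to 4.26 in naive mice. Th1 recipient 1, which had the most Cxcl1 of its group (4.51), also had the most S100a9, S100a8 (7.01) and Pf4 (4.30) of that group. Other mice went against this for Cxcl1 and S100a9. Th1 recipients 4 and 5 had more Cxcl1 (4.03 and 4.17) than Th1 recipient 2 (3.44) but less S100a9 (3.96 and 3.80 against 5.02). Th17 recipient 5 had the least Cxcl1 of its group (6.88) and the most S100a9 (9.38). How these genes ran together within groups was not tested. Il1r2, the decoy receptor for IL-1, differed by 2.50 between Th17 and Th1 recipients (limma adjusted p = 3.66e-10), and Mmp8, the neutrophil collagenase, by 2.43 (limma adjusted p = 0.000135). Lcn2, another marker of this list, was high in both kinds of recipient. It averaged 11.73 ± 0.10 in Th17 recipients, 11.03 ± 0.43 in Th1 recipients and 2.76 ± 0.16 in naive wild-type mice (SD, n = 5 each). Its difference between Th17 recipients and naive mice, 8.97, was the largest of all 17097 genes. Of the granule genes of immature neutrophils, 7 of 8 were measured, and only Camp, which encodes an antimicrobial peptide, was called higher in Th17 recipients (0.56), while Elane (0.01) and Mpo (0.12) were not. Ribosomal centring gave 0 of these 7 higher and 6 lower in Th17 recipients, where 77.1% of all genes were called lower. Ly6g and Cxcr1 had no probe set named for them alone.

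Markers of other cell types were also called between these groups, and their part in the chemokine values was not tested. All 15 measured monocyte and macrophage markers of 16 exceeded naive levels in Th17 recipients (median 5.24) and in Th1 recipients (median 4.43). Their mean level per mouse was 8.33 to 8.74 in Th17 recipients, 8.13 to 8.61 in Th1 recipients and 3.45 to 3.50 in naive mice, and between Th17 and Th1 recipients 7 were higher and 1 lower. The median difference of these 15 between Th17 and Th1 recipients was −0.07. With each array centred on its median, or with quantile normalization, 5 were higher and 1 lower there. Of 9 measured T cell markers, 8 were higher in both kinds of recipient, and Thy1, which neurons also carry, was lower (−0.39 in Th17 recipients). Of these T cell genes 3 exceeded their Th1 level in Th17 recipients (4 on the ribosomal scale), and 0 lay below it.

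Among the cell types named above as makers of Cxcl1 and Cxcl2, macrophages had every measured marker of their list higher than in naive mice, as just given. Fibroblasts, endothelial cells and astrocytes had mixed marker counts. Of 8 fibroblast and meningeal markers, all measured, 4 were higher and 1 lower in Th17 recipients, 3 higher and 0 lower in Th1 recipients (each against naive mice) and 3 higher and 1 lower in Th17 than in Th1 recipients. Col3a1, a fibrillar collagen, averaged 8.36 ± 0.27 in Th17 recipients, 7.05 ± 0.56 in Th1 recipients and 4.04 ± 0.17 in naive mice (SD, n = 5 each), while Igf2, a growth factor of the meninges, was lower in Th17 recipients than in naive mice (−1.28). Of 10 endothelial markers 9 were measured, and 4 were higher and 2 lower in Th17 recipients, 3 higher and 2 lower in Th1 recipients (each against naive mice) and 1 higher and 2 lower between Th17 and Th1 recipients. Against naive mice 18.0% of all genes were higher and 25.5% lower in Th17 recipients, and 16.7% and 24.1% in Th1 recipients. Several counts in this paragraph are near these shares. Vwf, the von Willebrand factor of endothelium and platelets, differed by 3.75 between Th17 recipients and naive mice, while the median of the 9 was −0.02. The 2 lower ones were Slco1c1 and Tek. Slco1c1 averaged 6.41 ± 0.24 in Th17 recipients and 7.27 ± 0.13 in naive mice, and Tek 4.72 ± 0.24 and 5.03 ± 0.17 (SD, n = 5 each). Of 10 measured astrocyte markers, 5 were higher and 4 lower in Th17 recipients, 3 higher and 4 lower in Th1 recipients (both against naive mice) and 1 higher and 1 lower between Th17 and Th1 recipients. Of the 5, Slc1a3 was near the background in every group (2.78 in Th17 recipients, 2.54 in naive mice). With each array centred on its median, Slc1a3 and Sox9 lost their calls, which left 3 higher and 4 lower in Th17 recipients. The Th17 counts on the ribosomal scale against naive mice were 4 higher and 3 lower for fibroblast, 3 higher and 5 lower for endothelial and 2 higher and 5 lower for astrocyte markers, and the Th1 counts were 3 and 4, 1 and 4, and 0 and 7. Of 14 platelet and megakaryocyte markers 10 were measured, and in Th17 recipients only Pf4 was higher than in naive mice while Gp1bb (−0.70), Gp5 (−0.52) and Gng11 (−0.32) were lower. Gng11 averaged 9.12 in naive wild-type mice, above 93.9% of genes. Gp5 averaged 3.53 in naive wild-type mice and 3.00, near the background, in Th17 recipients. Which cells these values came from was not tested. On the ribosomal scale 8 of the 10 were lower, as were 77.1% of all genes. Of 18 genes of neutrophil adhesion and migration 16 were measured, and 13 were higher in Th17 (median 2.28) and 12 in Th1 recipients (median 2.13) than in naive mice, with 0 lower. Between Th17 and Th1 recipients 5 were higher and 1 lower. On the ribosomal scale 13 were higher and 1 lower in Th17 and 10 higher and 4 lower in Th1 recipients. Selp, the endothelial and platelet selectin that captures neutrophils, read 4.19 to 5.29 in Th17 recipients, 2.76 to 3.09 in Th1 recipients and 2.72 to 2.88 in naive mice, and differed by 1.81 between Th17 and Th1 recipients (limma adjusted p = 1.87e-09). F11r, a junctional adhesion molecule, went the other way between them (−0.45). Spinal cord markers were high in all mice (mean level 9.32 to 10.19), as the tissue label says, and 8 of 9 were lower in Th17 recipients than in naive wild-type mice. In KO mice none of these markers was called between Th17 recipients and naive mice.

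The genes whose levels ran most like each member over the 24 arrays are given as a description, since the group differences shape every such correlation. For Cxcl1 they were Sprr1a, a cornified envelope protein (Pearson's r = 0.972), Il1r2 (0.971) and Chil1, a chitinase-like protein of reactive astrocytes (0.971). For Cxcl2 they were Il6 (0.959), Il1r2 (0.942) and Il1f9, an IL-36 cytokine (0.929). For Cxcr2 they were Asprv1, a protease (0.796), Mefv, the inflammasome protein pyrin (0.769), and Selp (0.762). Cxcl5 ran most like Otoa (0.799), Snorc (0.716) and Mrpl41 (0.711), and Ppbp most like Tex21 (0.822), 1700069L16Rik (0.782) and Anxa10 (0.778). None of these 6 genes was called between WT Th17 recipients and naive WT mice. On the ribosomal scale all 6 were called lower, as were 77.1% of all genes. Among members, Cxcl1 and Cxcl2 correlated at 0.917, Cxcl1 and Cxcr2 at 0.693, and Cxcl2 and Cxcr2 at 0.549.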

How the data were processed

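RNA from 24 spinal cords was hybridized to Affymetrix mouse arrays, 1 a mouse. The authors deposited log2 expression values made by RMA for 45118 probe sets. Which RMA version was used, and on which arrays jointly, is not given in the sources used here. Of the probe sets, 28898 have 1 symbol in the platform annotation, 551 several and 15669 none listed, and the first kind was used. Each of 17097 genes was read from its probe set with the highest mean. Same-group arrays correlated at 0.986 to 0.997, and no array was a copy of another (smallest mean absolute difference 0.143). The number of mice, not a depth, limits the precision.

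All arrays entered 1 fit of group means (lmFit and eBayes of limma 3.58.1, R 4.3.3), with Benjamini-Hochberg adjustment over all genes, and the fit was checked on simulated data. The methods name a t-test, which was run as an alternative, and the closing section gives the others. Members and lists were chosen with earlier results of these data known. Named genes were all members, the 3 genes most correlated with each, and from each of 13 lists up to 4 genes with the smallest adjusted p and those against the list's direction. Other names were chosen after their values were seen. Promoter windows came from RefSeq tables (GRCm38.p6), and motifs were searched on both strands. The sources give no separate run or scan dates. The technical groups examined were therefore the plate rows and columns inferred from a code in the titles.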

Additional observations from a re-analysis of the deposited data

Results flagged for a closer look

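The Th17 response differed between genotypes, KO minus WT, by the interaction term of the limma fit for 4 members: −4.00 for Cxcl1, −1.42 for Cxcl2, −0.64 for Cxcr2 and −0.27 for Cxcl5 on the log2 scale (limma adjusted p = 3.33e-14, 1.92e-05, 0.0107 and 0.0451). On the ribosomal scale the sign turns for Cxcl5 (0.09), and Cxcr2 is at −0.28 and no longer called (limma adjusted p = 0.206).

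In Th1 recipients 1 mouse stood apart from the other 4 for Cxcr2, at 2.46 against 2.80 to 2.88. It was the only mouse to stand out in 25 groups of values examined, where chance alone marks about 1 group in 20, and it lies near the background.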

How the results depend on the processing

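Every choice below was tried 1 at a time on the number of members called. For WT Th17 recipients against naive mice the number was 4, and it was 2 with a filter on dim genes (Cxcl5, Ppbp and Cxcr2 did not pass it), 2 by the exact Mann-Whitney test with Benjamini-Hochberg adjustment and 2 where a 2-fold size was also asked. For the genotype difference of the response it was 4, and 2 with the dim filter, 2 with the plate row as a block and 2 with the 2-fold rule. For Th1 recipients against naive mice it was 1 (Cxcl1, higher), but 3 others with ribosomal centring, all lower (Cxcl5, Ppbp and Cxcr2, with Cxcl1 at 0.34 and not called), and 0 with the 2-fold rule. With that centring 80.6% of all genes were called lower there. Between Th17 and Th1 recipients it was 3, but 1 by the methods' t-test after adjustment and 0 by the adjusted Mann-Whitney test, which called 0 of all genes there (adjusted p = 0.241 for Cxcl1). Between naive KO and naive WT mice it was 0, but 1 by the unadjusted methods' t-test and 1 by the unadjusted Mann-Whitney test, both times Cxcl5. For KO against WT Th17 recipients the number was 3. Cxcr2 lost that call by the methods' t-test after adjustment (adjusted p = 0.0627) and by the adjusted Mann-Whitney test (adjusted p = 0.0796). It also lost it with ribosomal centring and with the 2-fold rule. For WT Th17 recipients against naive mice, centring each array on its median left 3 members called, without Cxcl5 (limma adjusted p = 0.104). The cause of these changes was not tested beyond what each setting itself removes.

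With ribosomal centring Cxcl5 reversed for WT Th17 recipients against naive mice (−0.23), for Th1 recipients against naive mice (−0.45), for KO against WT Th17 recipients (0.33) and for the genotype difference (0.09), and Cxcr2 was called lower in Th1 recipients than in naive mice (−0.60). The genotype difference of Cxcr2 lost its call (−0.28) and that of Ppbp gained one (0.37). Leaving out 1 mouse at a time gave 3 to 4 members for WT Th17 recipients against naive mice and 3 to 4 for the genotype difference, and left the other counts as they were. Replicate numbers were not taken to pair the mice. Deviations of same-numbered mice correlated at a median of 0.0407, beside 0.0140 for different-numbered mice. Of 46 same-numbered pairs 16 were over 0.1 (range −0.290 to 0.437). These values do not settle whether any mice were paired. With the replicate block the genotype difference of Cxcl5 was −0.26 (limma adjusted p = 0.0710), which left 3 members called, and no other member lost or gained a call. Over 984 values of single members under alternatives, the sign turned in 34 that were not called either way, none over 0.21 in size. Calls of single members were lost without a change of sign in 46, of which 28 were of Cxcl5 and 13 of Cxcr2. Each measured member has 1 probe set, so choosing among probe sets could not move its values, and no fit for every probe set on its own was run. Signal near the background limits Cxcl5, Ppbp and Cxcr2 most.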
